A study of Mus musculus with 21 samples.

Results

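The 6 genes described here encode neurotrophins and their receptors: the receptors *Ntrk2*, *Ntrk3*, *Ngfr* and *Sort1* and the ligands *Bdnf* and *Ntf3*. They were chosen by name from a table of 52550 genes, with earlier results of these data known, and each of the 6 symbols matched 1 gene. Neurotrophins are small secreted proteins made as precursors and cleaved to mature ligands. BDNF binds mainly the receptor tyrosine kinase TrkB (*Ntrk2*), NT-3 binds mainly TrkC (*Ntrk3*), and all neurotrophins bind p75NTR (*Ngfr*), which pairs with sortilin (*Sort1*) to bind the uncleaved precursors. In the inner ear, both ligands are known to come from the sensory epithelium, from hair cells and from the supporting cells around them, and spiral ganglion neurons depend on them to survive and to reach their targets.

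The 21 mouse RNA-Seq libraries fell into 7 groups of 3 replicates. SGNs (spiral ganglion neurons, which carry sound signals from the cochlea to the brain) came from C57BL/6 mice that carried *ShhCre/+* and the reporter *Rosa26-CAG-loxp-stop-loxp-tdTomato/+*, at 5 ages (the embryonic stage E15.5 and the postnatal days P1, P8, P14 and P30), with 69 to 195 tdTomato+ cells per library, picked by hand. HCs (hair cells, the sensory cells) came from P12 mice with *Atoh1-CreER+* and the same reporter, given tamoxifen at P0 and P1. They were pooled from cochlear and vestibular organs at about 1200 cells per library, by manual sorting according to the sample labels and by FACS according to the methods. Glial cells came from the SGN area of P8 mice with *vGlut3-iCreER/+* and this reporter, given tamoxifen at P2 and P3, a line that also labels inner hair cells. All groups carried the tdTomato reporter and the strain C57BL/6, and samples had been kept only if qPCR for marker genes, *Sox10* and *Myo6* among them, passed a purity limit and if markers of SGNs, HCs, glia and other cell types passed a further check in the RNA-Seq data. HCs and glial cells were each taken at 1 age and from their own Cre line and, for HCs, their own sorting, so cell type cannot be told apart from Cre line, and in HCs not from the organs pooled or the sorting. Nothing states that replicates came from separate animals, so p-values measure the spread between libraries, which may be technical.

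Total counts on genes ranged from 10368240 to 37287489 per library. Levels are given as RPKM, that is CPM (counts scaled to the library size) per kilobase of gene length, on the TMM library size (the total count corrected for composition by edgeR's trimmed mean of M values). The study's own scale, TPM, moved with *Gm23935*, a gene model of 57 bases that took between 8.17% and 68.1% of a library's TPM. Over the 20 combinations of the 4 receptors and 5 ages, the median coefficient of variation among replicates was 38.7% in TPM and 17.0% in RPKM, and RPKM was chosen as the scale after these values were seen. Defining markers mostly followed the labels, but samples had been accepted on such markers, so this is no independent check. *Slc17a6* and *Slc17a7* had medians of 62.5 and 60.7 RPKM over the 15 SGN libraries. At E15.5 they were lower, at 12.7 to 18.2 and 1.77 to 8.77 RPKM, where glial replicate 1 held 15.7 and 10.9 RPKM. These genes thus did not separate E15.5 SGNs from that glial library. *Myo6*, *Myo7a* and *Pou4f3* were between 60.0 and 149.8 RPKM in HCs, and *Sox10* and *Foxd3* were between 67.2 and 215 RPKM in glial cells. Markers of other cells were also present. The 10 HC markers summed to between 19.6 and 372 RPKM in SGNs and between 81.2 and 343 RPKM in glial cells, against 1660.1 to 1837 RPKM in HCs. The 10 glial markers summed to between 739 and 1192 RPKM in P8 SGNs and between 58.2 and 551 RPKM at the other SGN ages, against 6952 to 9555 RPKM in glial cells. The 10 supporting cell markers summed to between 266 and 282 RPKM in HCs, where 8 or 9 of them exceeded 1 RPKM and 1 was at 0, against 1.64 to 51.5 RPKM in SGNs and 9.01 to 109.8 RPKM in glial cells. The 8 mesenchyme markers summed to between 228 and 379 RPKM in glial cells, with 7 or 8 above 1 RPKM, against a median of 12.7 RPKM in SGNs, where P1 and P8 replicates 1 reached 100.6 and 124 RPKM. Blood markers reached 116 RPKM in E15.5 SGN replicate 1 and endothelial markers 41.7 RPKM in P1 SGN replicate 1. The part of these cells in the differences between SGNs and glial cells was not tested. Glial replicate 1 held the most SGN marker signal of its group, 312 RPKM over 10 markers against 70.1 and 35.7 RPKM. P14 SGN replicate 1 had the highest sum of HC markers among SGNs.

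*Ntrk2* lies on chromosome 13, 58806569 to 59133970 (plus strand), and *Ntrk3* on chromosome 7, 78175959 to 78738012 (minus strand), in GENCODE M21 on GRCm38. Both genes encode long receptors with an intracellular tyrosine kinase and shorter receptors that end before it, and the deposited counts pool these forms. The sequences below are shown because a level of either gene cannot be read as a level of the kinase form. They are coding sequences of the annotation, 5′ to 3′ on the sense strand, in lower case for the last 20 bases that the short and the long transcript share and in capitals from the first base that differs.

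Ntrk2-202 (short form, to its stop codon): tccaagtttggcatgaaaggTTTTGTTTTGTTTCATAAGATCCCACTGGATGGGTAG
Ntrk2-207 (kinase form, next 40 bases): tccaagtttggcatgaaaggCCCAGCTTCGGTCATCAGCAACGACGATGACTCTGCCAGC
Ntrk3-202 (short form, to its stop codon): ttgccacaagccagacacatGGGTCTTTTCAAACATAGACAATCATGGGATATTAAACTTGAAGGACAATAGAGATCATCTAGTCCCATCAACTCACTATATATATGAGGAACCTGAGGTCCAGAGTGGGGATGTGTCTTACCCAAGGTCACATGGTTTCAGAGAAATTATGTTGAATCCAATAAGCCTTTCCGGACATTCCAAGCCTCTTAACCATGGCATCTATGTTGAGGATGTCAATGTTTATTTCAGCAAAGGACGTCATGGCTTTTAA
Ntrk3-206 (kinase form, next 40 bases): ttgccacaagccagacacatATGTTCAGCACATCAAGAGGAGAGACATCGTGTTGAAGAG

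The short *Ntrk2* transcript Ntrk2-202, which encodes the truncated T1 receptor, shared its first 1394 coding bases with Ntrk2-207 and then had 37 bases of its own, for 476 codons against 821. Ntrk2-204 ended in the same 37 bases. The short *Ntrk3* transcript Ntrk3-202 shared 1585 bases with Ntrk3-206 and then had 254 of its own, for 612 codons against 864. A pair of further *Ntrk3* forms each lacked 1 block of the longest, 75 bases in Ntrk3-205 and 117 bases in Ntrk3-201. No exon of another annotated gene overlapped the exons of *Ntrk2*, *Ntrk3*, *Ngfr* or *Ntf3*.

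Of the 6 genes, 4 had promoters in the RefSeq table for GRCm38.p6, with 11 start sites in all, each given as 250 bases before and 50 after the start. For each gene 1 promoter is shown, since *Ntrk2* and *Ngfr* were highest in SGNs and *Bdnf* and *Ntf3* in HCs. The following motifs were searched on both strands: the GC box GGGCGG, the E-boxes CAGCTG and CACGTG, the core TGACG of the cAMP response element and the TATA box TATAAA. Capitals mark their matches.

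Ntrk2, chr13:58806319-58806618, plus strand: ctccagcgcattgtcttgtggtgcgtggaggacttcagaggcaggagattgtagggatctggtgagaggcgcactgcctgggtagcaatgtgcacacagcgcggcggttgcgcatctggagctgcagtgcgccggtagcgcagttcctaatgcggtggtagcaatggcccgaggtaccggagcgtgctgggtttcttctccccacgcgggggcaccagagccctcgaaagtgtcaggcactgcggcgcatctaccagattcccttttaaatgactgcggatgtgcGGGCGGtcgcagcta
Ngfr, chr11:95587649-95587948, minus strand: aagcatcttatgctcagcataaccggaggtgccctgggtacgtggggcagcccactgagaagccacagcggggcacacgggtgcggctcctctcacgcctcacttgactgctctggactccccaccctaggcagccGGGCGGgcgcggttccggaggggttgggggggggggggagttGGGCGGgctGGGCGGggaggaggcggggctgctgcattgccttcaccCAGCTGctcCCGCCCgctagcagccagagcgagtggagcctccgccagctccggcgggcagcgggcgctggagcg
Bdnf, chr2:109692186-109692485, plus strand: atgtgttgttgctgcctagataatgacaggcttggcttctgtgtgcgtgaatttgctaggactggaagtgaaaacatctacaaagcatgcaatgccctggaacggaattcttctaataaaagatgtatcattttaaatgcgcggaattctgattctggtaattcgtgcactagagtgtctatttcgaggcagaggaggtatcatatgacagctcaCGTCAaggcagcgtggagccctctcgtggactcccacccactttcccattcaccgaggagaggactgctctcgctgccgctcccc
Ntf3, chr6:126166695-126166994, minus strand: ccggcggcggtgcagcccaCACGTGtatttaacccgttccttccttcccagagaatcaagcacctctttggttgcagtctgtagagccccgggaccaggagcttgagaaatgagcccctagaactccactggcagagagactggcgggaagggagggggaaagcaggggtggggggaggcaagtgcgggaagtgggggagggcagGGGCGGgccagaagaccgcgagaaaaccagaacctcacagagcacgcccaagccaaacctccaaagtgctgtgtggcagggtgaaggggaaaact

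The *Ngfr* promoter held 4 GC boxes and 1 CAGCTG, and the *Ntrk2* promoter 1 GC box. The *Bdnf* promoter shown, the third of its 7, held the only TGACG core among the 11 starts, and the *Ntf3* promoter held 1 GC box and 1 CACGTG. Among 32851 promoters of the same length, 35.7% held a GC box, 16.3% a CAGCTG, 7.15% a CACGTG, 20.8% a TGACG core and 13.6% a TATAAA, of which none was found at the 11 starts. *Ntrk2* and *Ngfr* each had 23 CpG dinucleotides in the window, where the median over all promoters was 7. The libraries count whole genes and do not tell which start was used.

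The first question was how the receptors and ligands behave while SGNs mature. The Trk receptors and p75NTR were present in all 15 SGN libraries and stayed within a narrow range from E15.5 to P30. Of the 6 genes, 5 could be tested between ages, since *Ntf3* did not reach 1 CPM in all replicates of any age. None of the 5 passed an adjusted p of 0.05 and a 2-fold change in any comparison of ages. Among all 15113 genes tested, 8.26% passed from E15.5 to P1 and 7.44% from P1 to P8, then 0.536% between P8 and P14 and 0.0596% between P14 and P30, and 34.6% from E15.5 to P30 (limma-voom, two-sided, Benjamini-Hochberg adjustment). The 0 of 5 stands beside these shares.

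*Ntrk2*, the TrkB receptor, was measured at 19.6, 16.0025 and 24.6 RPKM in the 3 E15.5 libraries, at 32.5, 27.4 and 26.9 RPKM at P1 and at 21.1, 23.2 and 24.2 RPKM at P8. It was at 23.4, 21.4 and 26.3 RPKM at P14 and at 30.9, 28.7 and 32.7 RPKM at P30. All P30 libraries lay above all E15.5 libraries, and the ages between them overlapped with one or the other. The P30 level was 1.52-fold the E15.5 level (log2 0.60, SE 0.15, limma-voom adjusted p = 0.00474), short of the 2-fold limit, and from E15.5 to P1 the difference was 1.47-fold (log2 0.55, SE 0.15, adjusted p = 0.0265). The latter had an adjusted p of 0.0955 without E15.5 replicate 2, 0.111 with library size scaling and 0.108 without both E15.5 replicate 2 and P14 replicate 1. Scaling by the library size alone shifted the comparison of P30 with E15.5 by −0.50 on the log2 scale, and *Ntrk2* then differed by 0.13 (adjusted p = 0.546). Without E15.5 replicate 2, the lowest library of its age, the difference was 0.42 (adjusted p = 0.0346).

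*Ntrk3*, the TrkC receptor, was at 37.5, 29.3 and 28.4 RPKM at E15.5, at 32.9, 36.9 and 39.2 RPKM at P1 and at 27.1, 35.2 and 32.3 RPKM at P8. At P14 it was at 20.2, 30.6 and 28.1 RPKM, and at P30 at 24.9, 29.4 and 34.4 RPKM. The ranges of neighboring ages overlapped, while all P1 libraries lay above all P14 libraries. P30 differed from E15.5 by −0.14 (SE 0.17, limma-voom adjusted p = 0.524). With library size scaling this difference was −0.62 (adjusted p = 0.00475), below 2-fold. Which of the Trk receptors had an adjusted p under 0.05 between E15.5 and P30 therefore depended on the scale.

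Their ratio within a library does not depend on the library scaling, but it does depend on the gene lengths. These cover all annotated exons merged, 19292 bases for *Ntrk2* and 30170 for *Ntrk3*. *Ntrk2* over *Ntrk3*, per length, was 0.52, 0.55 and 0.87 in the E15.5 libraries and 1.24, 0.98 and 0.95 at P30. In counts, *Ntrk2* stayed below *Ntrk3* at P30, with 17877, 10071 and 11697 against 22551, 16103 and 19218. The E15.5 and P30 ratios did not overlap, with geometric means of 0.63 and 1.05 (n = 3 each), and the difference of 0.74 on the log2 scale had an exact two-sided permutation p of 0.10, the smallest that 3 libraries against 3 allow. The geometric means between them were 0.79 at P1, 0.73 at P8 and 0.91 at P14, and each of these ages overlapped with E15.5. In HCs and glial cells the ratio was 3.84 and 3.84, with no library below 1.88, so *Ntrk3* was the scarcer of the Trk receptors outside the SGNs.

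**Figure D1:**
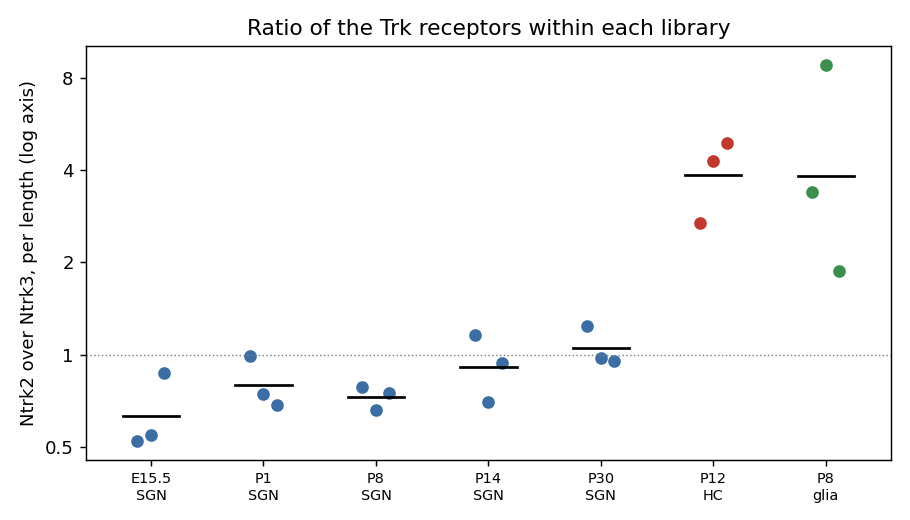
Ratio of *Ntrk2* to *Ntrk3* RPKM in each of the 21 libraries (log axis), by group, with the geometric mean of 3 libraries as a bar and a dotted line at a ratio of 1. SGN libraries lie between 0.52 and 1.24, and HC and glial libraries between 1.88 and 8.83.

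*Ngfr*, which encodes p75NTR, was the most abundant of the 6 genes per length in SGNs, between 63.7 and 127 RPKM. This order rests on the length, 3446 bases of merged exons for *Ngfr* against 30170 for *Ntrk3*. In counts, *Ntrk3* was above *Ngfr* in every SGN library, with 13734 to 34585 against 3272 to 15267. *Ngfr* was at 63.7, 116 and 73.9 RPKM at E15.5, at 127, 120.1 and 87.9 RPKM at P1 and at 81.2, 91.3 and 94.6 RPKM at P8. It was at 79.2, 75.8 and 120.3 RPKM at P14 and at 119, 68.0 and 103 RPKM at P30. The 5 ages overlapped one another in this gene, and its largest difference between neighboring ages was 0.43 on the log2 scale from E15.5 to P1 (SE 0.24, limma-voom adjusted p = 0.242).

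*Sort1*, the sorting receptor sortilin, was lower per length in SGNs than *Ngfr*, with a ratio within each library between 0.092 and 0.34. It was at 11.98, 22.5 and 13.2 RPKM at E15.5, at 11.8, 13.996 and 18.2 RPKM at P1 and at 18.8, 19.8 and 20.7 RPKM at P8. It was at 21.3, 17.3 and 24.96 RPKM at P14 and at 20.2, 23.0 and 29.4 RPKM at P30. E15.5 replicate 2 was the high library of its age, and it overlapped with P30. From E15.5 to P30 the difference was 0.59 (SE 0.23, limma-voom adjusted p = 0.0546), and without E15.5 replicate 2 it was 0.86 (adjusted p = 0.00914), below 2-fold in both. With library size scaling it was 0.10 (adjusted p = 0.746).

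**Figure D2:**
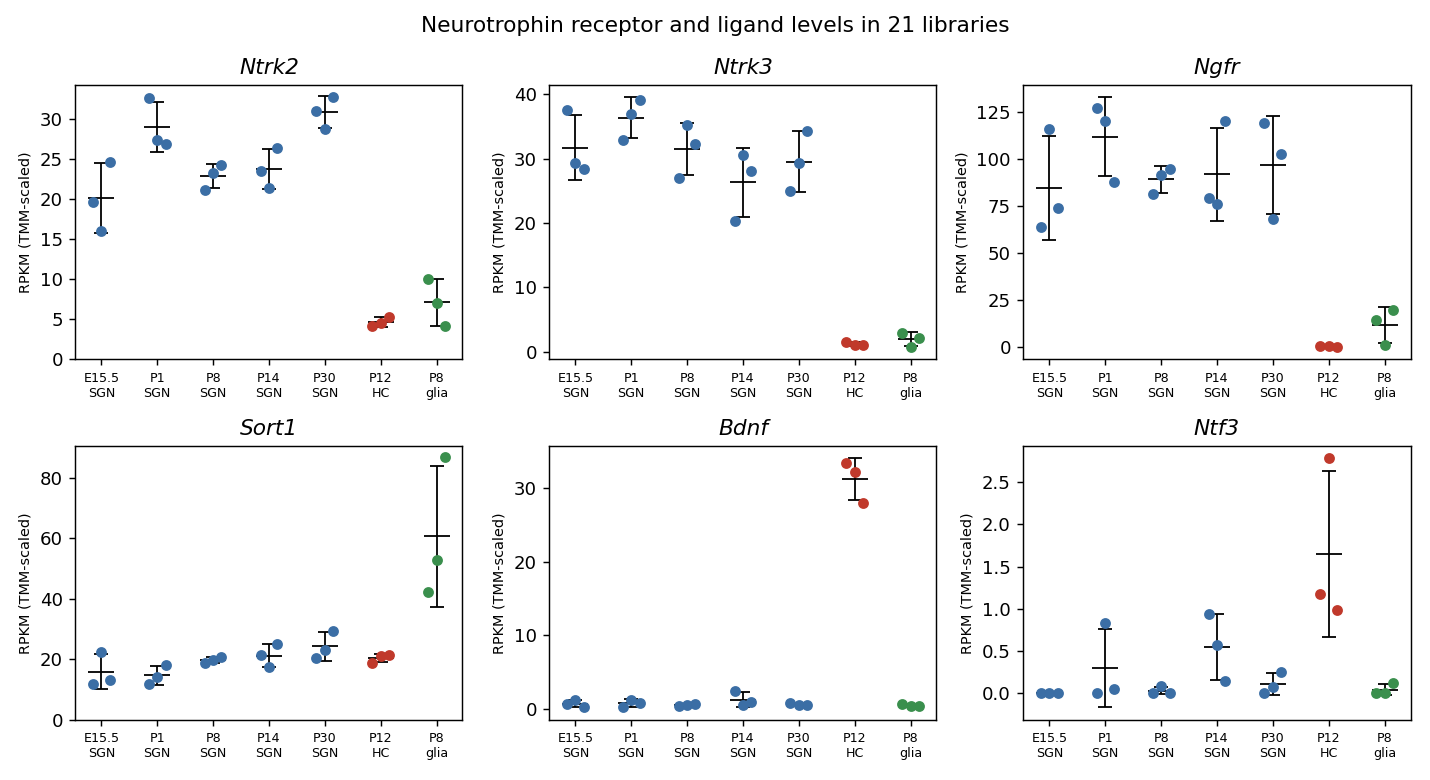
Levels of the 6 genes in RPKM (linear axes, 1 panel per gene, each with its own range), 1 point per library, with the mean and SD of the 3 libraries of each group. The 4 receptors are present in every SGN library, *Bdnf* is at 28.0 to 33.4 RPKM in HCs and at most 2.36 RPKM elsewhere, and *Sort1* is highest in glial cells.

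The second question was which of the 3 cell types holds each receptor. Against HCs, *Ntrk2*, *Ntrk3* and *Ngfr* were higher in SGNs and *Bdnf* and *Ntf3* lower at an adjusted p of 0.01 and a 4-fold change, while *Sort1* did not pass. *Ntf3* was tested only because HC libraries passed the filter, which favored this direction, so its call is no independent result. Of all 17531 genes tested, 10.5% were higher in the mean of the 5 SGN ages than in HCs and 16.2% lower. Against glial cells, *Ntrk3* and *Ngfr* were higher in SGNs, where 14.3% of all genes were higher and 10.4% lower, and none of the 6 was lower. Levels in bulk libraries do not tell fewer expressing cells apart from less RNA per cell.

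*Ngfr* had the widest spread between cell types. HC replicates 1, 2 and 3 held 16, 10 and 8 counts of it, or 0.28, 0.12 and 0.094 RPKM, against 3272 to 15267 counts in SGN libraries. The groups did not overlap, and the mean over SGN ages exceeded HCs by 9.25 on the log2 scale (SE 1.33, limma-voom adjusted p = 5.6e-06). Glial replicates 1, 2 and 3 held 930, 46 and 692 counts, or 14.001, 1.17 and 19.5 RPKM. Replicate 2 was the low glial library, all 3 lay below every SGN library, and the SGN mean exceeded the glial level by 3.65 (SE 0.59, adjusted p = 3.1e-05). Without glial replicate 2 the difference was 2.56 (adjusted p = 2.2e-05). The SGN markers were at 312, 70.1 and 35.7 RPKM in glial replicates 1, 2 and 3, and their part in the glial level was not tested. HCs had less *Ngfr* than glial cells (log2 −5.60, SE 1.45, adjusted p = 0.0036), where 16.2% of all genes were higher in HCs and 8.18% lower. This call passed the limit of 0.01 narrowly and was lost when HC replicate 1, 2 or 3 or glial replicate 1 or 3 was left out (adjusted p between 0.0102 and 0.0214). Ordered by mean TPM, the levels ran from P1, P14, P8, P30 and E15.5 SGNs to glial cells and HCs, and the only neighbors that differed by over 2-fold at an adjusted p under 0.05 were E15.5 SGNs against glial cells and glial cells against HCs. Among all genes and the 21 pairs of groups, 26.2% of tests passed these limits.

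*Ntrk3* was at 1.52, 1.04 and 1.07 RPKM in HCs, 727 to 803 counts, and at 2.94, 0.80 and 2.19 RPKM in glial replicates 1, 2 and 3. Every one of these libraries lay below the lowest SGN library at 20.2 RPKM. The SGN mean exceeded HCs by 4.69 on the log2 scale (SE 0.36, limma-voom adjusted p = 4.9e-10) and glial cells by 4.04 (SE 0.37, adjusted p = 1.6e-08). In the order P1, P8, E15.5, P14 and P30 SGNs, HCs and glial cells, the only called step between neighbors was P30 SGNs against HCs.

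*Ntrk2* was the Trk receptor with the smaller gap. HC libraries held 4.11, 4.46 and 5.26 RPKM and glial replicates 1, 2 and 3 held 10.001, 7.05 and 4.12 RPKM, all below the lowest SGN library at 16.0025 RPKM. Relative to HCs the SGN mean was higher by 2.42 on the log2 scale (SE 0.21, limma-voom adjusted p = 3.1e-09). Scaling by library size alone shifted the comparison with HCs by −0.55 on the log2 scale, and *Ntrk2* then differed by 1.87 (adjusted p = 2.7e-07), below 4-fold. Relative to glial cells it was 1.82 (SE 0.21, adjusted p = 6.0e-07), also below 4-fold, and 2.21 without glial replicate 1, which passes. Among the 7 groups the only called step between neighbors was E15.5 SGNs against HCs, and HCs and glial cells changed places between TPM and RPKM.

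*Sort1* had another pattern. It was at 42.3, 52.8 and 86.7 RPKM in glial cells and at 18.9, 21.2 and 21.3 RPKM in HCs. All glial libraries lay above all SGN libraries, and HCs lay inside the SGN range. The SGN mean was below glial cells by 1.59 on the log2 scale, a 3.00-fold difference (SE 0.18, limma-voom adjusted p = 3.3e-07) short of the 4-fold limit, and HCs were below glial cells by 1.43 (SE 0.24, adjusted p = 8.8e-05). Against HCs the SGN difference was −0.16 (SE 0.21, adjusted p = 0.541), and −0.71 with library size scaling (adjusted p = 0.00626). Mean TPM placed HCs first at 73.6 and glial cells at 67.9, whereas RPKM placed HCs at rank 4 of the 7 groups at 20.5 and glial cells first at 60.6, so the place of HCs depends on the scale. At the 2-fold limit, the steps from HCs to glial cells and from glial cells to P14 SGNs were called. *Sort1* lies on chromosome 3, 108284082 to 108361511 (plus strand), and shares 338 exon bases with the antisense gene *Gm12523*, which held at most 22 counts in any library. The sources used here do not state whether the counting used strand.

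For the P8 pair of SGNs and glial cells, the only pair matched in age, the calls were those of the SGN mean. So were those between P14 SGNs and P12 HCs, the nearest ages, except that *Ntf3* did not pass. P8 SGNs exceeded P8 glial cells by 4.08 (SE 0.38) for *Ntrk3* and 3.58 (SE 0.61) for *Ngfr* on the log2 scale (limma-voom adjusted p = 8.7e-08 and 9.1e-05), where 13.4% of all genes were higher and 7.53% lower. *Ntrk2* at 1.69 and *Sort1* at −1.49 had adjusted p of 9.9e-06 and 3.7e-05 and stayed under 4-fold, and *Ntrk2* passed at 2.08 without glial replicate 1. P14 SGNs exceeded P12 HCs by 2.35 for *Ntrk2*, 4.45 for *Ntrk3* and 9.18 for *Ngfr*, with adjusted p of 1.2e-07, 1.7e-08 and 1.3e-05, where 10.9% of all genes were higher and 12.2% lower. With library size scaling *Ntrk2* was at 1.63 here, below 4-fold. These pairs share libraries with the comparisons of the SGN mean.

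**Figure D3:**
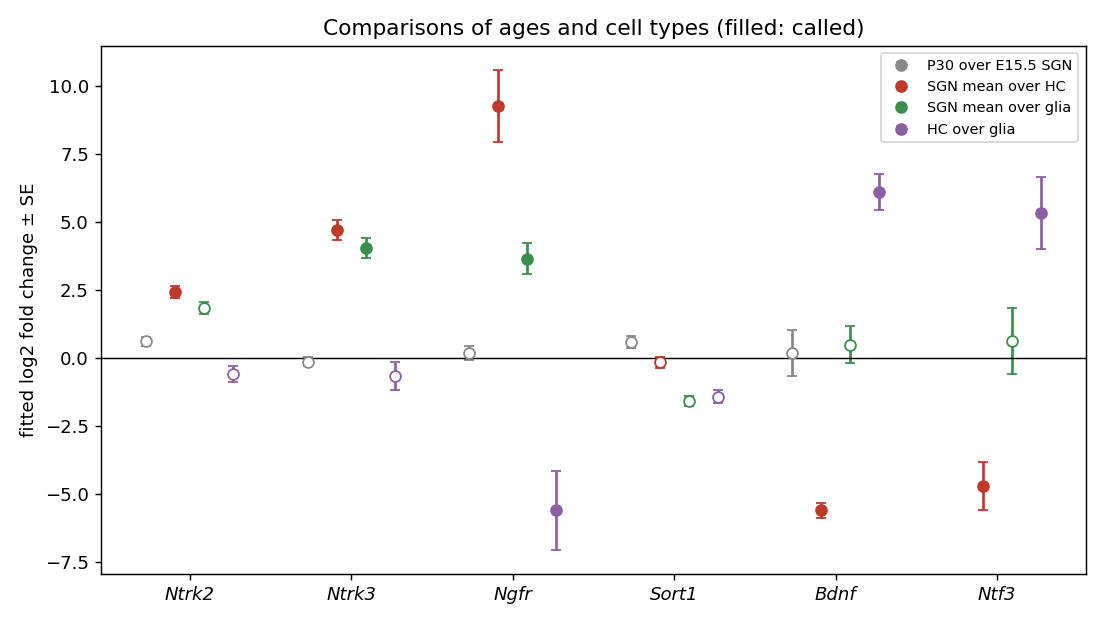
Fitted log2 fold changes with their SE for 4 comparisons of the 6 genes (limma-voom). Filled points passed the limits of their comparison, a 2-fold change and adjusted p of 0.05 between ages or a 4-fold change and 0.01 between cell types. No point of P30 over E15.5 is filled, *Ntrk2*, *Ntrk3* and *Ngfr* are above 0 and *Bdnf* and *Ntf3* below 0 for SGNs over HCs, and *Ntf3* has no point between ages.

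The third question was where the ligands are made. *Bdnf*, the ligand of TrkB, lies on chromosome 2, 109674700 to 109727007 (plus strand). HC replicates 1, 2 and 3 held 3498, 4657 and 4308 counts, or 33.4, 32.2 and 28.0 RPKM, and glial replicates held 74, 30 and 20 counts, or 0.62, 0.42 and 0.31 RPKM. SGN libraries held between 28 and 341 counts, with a lowest, median and highest level of 0.22, 0.63 and 2.36 RPKM. HCs lay above every other library, and SGNs and glial cells overlapped.

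The SGN mean of *Bdnf* was below HCs by 5.60 on the log2 scale, a 48.5-fold difference (SE 0.27, limma-voom adjusted p = 5.0e-13), and HCs exceeded glial cells by 6.09 (SE 0.66, adjusted p = 5.2e-07). SGNs and glial cells differed by 0.49 (SE 0.69, adjusted p = 0.585). P14 SGNs were below P12 HCs by 4.85 (SE 0.49, adjusted p = 1.5e-07), and by 5.57 without P14 replicate 1 (adjusted p = 1.3e-06). No neighboring SGN ages differed in *Bdnf* beyond the spread of replicates, with SEs between 0.74 and 0.80 on the log2 scale. The antisense gene *Gm45346* shares 896 exon bases with *Bdnf*, and it held 7, 6 and 16 counts in HC replicates 1, 2 and 3 and none in the other libraries.

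Within SGNs, *Bdnf* was highest in P14 replicate 1 at 2.36 RPKM, the library in which the 10 HC markers also summed highest, at 372 RPKM with all 10 above 1 RPKM. P1 replicate 2 followed in both, at 1.25 RPKM of *Bdnf* and 347 RPKM of HC markers, but P8 replicate 1 had 338 RPKM of HC markers and 0.36 RPKM of *Bdnf*, and E15.5 replicate 1 had 19.6 RPKM of HC markers and 0.63 RPKM of *Bdnf*. The part of HC transcripts in the SGN signal was not tested. The HC libraries also held the supporting cell markers given above, whose part in the HC signal was not tested either.

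**Figure D4:**
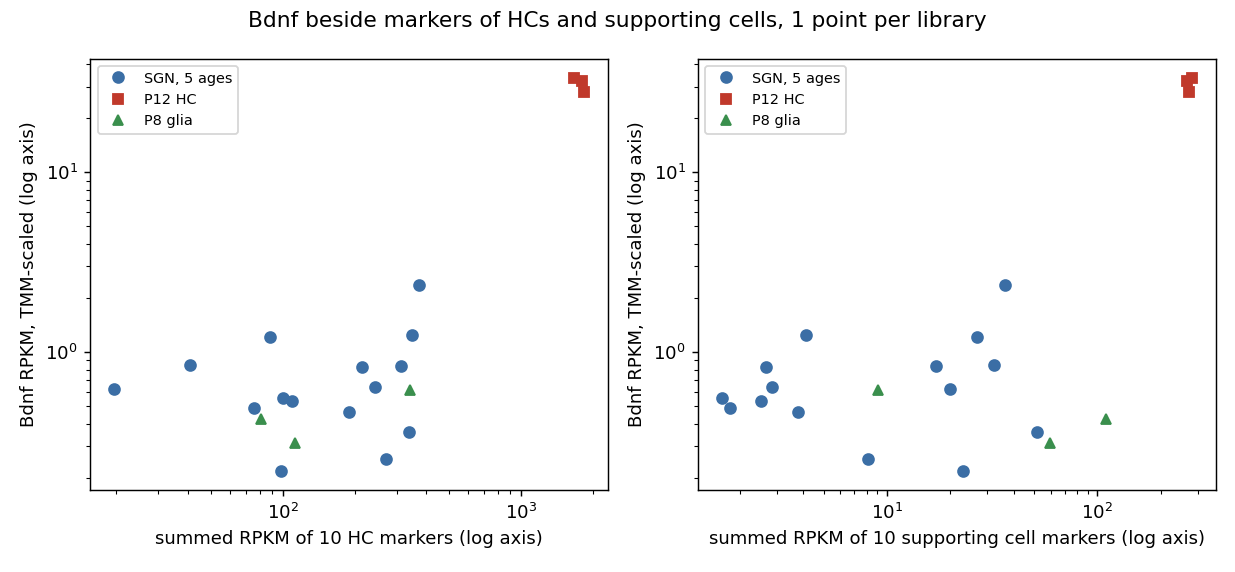
*Bdnf* RPKM against the summed RPKM of 10 HC markers (left) and 10 supporting cell markers (right), both on log axes, 1 point per library. The 3 HC libraries stand apart from the others on both axes, and P14 SGN replicate 1, at 2.36 RPKM of *Bdnf*, is the SGN library with the highest HC marker sum at 372 RPKM.

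*Ntf3*, which encodes NT-3, the ligand of TrkC, lies on chromosome 6, 126101412 to 126166910 (minus strand), and was rare everywhere. HC replicates 1, 2 and 3 held 34, 111 and 42 counts, or 1.18, 2.79 and 0.99 RPKM. E15.5 SGNs held 0 counts in all 3 libraries. P1 libraries held 0, 36 and 2 counts, P8 libraries 0, 4 and 0, P14 libraries 37, 18 and 4, and P30 libraries 0, 2 and 8. Glial libraries held 0, 0 and 2 counts. HCs did not overlap with SGNs in RPKM, though P14 replicate 1, again the high SGN library, reached 0.93 RPKM against 0.99 RPKM in the lowest HC library.

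Compared as sums of counts over the 3 libraries of each group, *Ntf3* was at least 64.6-fold higher in HCs than in E15.5 SGNs (187 counts against a floor of 3 over the group). The ratio of HCs to P14 SGNs was 4.64 (exact 95% interval 3.44 to 6.32) and to glial cells 83.3 (22.7 to 693), with intervals that cover counting error only. *Ntf3* entered the fit of cell types only because HC libraries passed the filter, which favored a higher level in HCs. Its calls are therefore no independent result, and its fitted differences depend on the prior count. Those were −4.70 (SE 0.87, limma-voom adjusted p = 0.00011) for the SGN mean against HCs and 5.32 (SE 1.33, adjusted p = 0.0028) for HCs against glial cells. P14 SGNs against P12 HCs did not pass (−1.72, SE 1.19, adjusted p = 0.249), and no step between neighbors in the order of the 7 groups was called. HCs against glial cells was lost without HC replicate 2, glial replicate 1 or glial replicate 2 (adjusted p 0.0148, 0.0208 and 0.0146). Without glial replicate 1 or HC replicate 2, 1 of the 6 genes was called between HCs and glial cells, *Bdnf*, in place of 3.

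*Bdnf* exceeded *Ntf3* in HCs within each library, by 28.4-, 11.6- and 28.3-fold per length (geometric mean 21.01, n = 3).

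*Ntf5*, which encodes neurotrophin-4/5, another TrkB ligand, reached 118 counts in P14 SGN replicate 1 and 48 in P8 SGN replicate 1, with at most 15 elsewhere. These libraries also had the highest supporting cell marker sums among SGNs, 36.3 and 51.5 RPKM. P14 SGN replicate 3, with a sum of 32.3 RPKM, held 0 counts of *Ntf5*. HC libraries, with sums of 266 to 282 RPKM, held at most 15 counts. The part of other cells in the *Ntf5* counts was not tested.

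The family list also held sorting receptors related to sortilin. Of its 8 genes, 5 could be tested. Of the 5 tested, 1 was lower at P30 than at E15.5, 2 were lower in SGNs than in HCs, and 1 was higher and 3 lower in SGNs than in glial cells. Of all genes, 34.6% were called from E15.5 to P30, 16.2% were lower against HCs, and 14.3% were higher and 10.4% lower against glial cells. Leaving out 1 library gave between 1 and 3 calls from E15.5 to P30, with 3 without E15.5 replicate 3 and 2 without P1 replicate 1, P1 replicate 2, P8 replicate 1 or P30 replicate 1, and it gave 2 calls against glial cells without glial replicate 1 or 3. The family list's median was −1.88 against HCs and −3.53 against glial cells on the log2 scale, where the medians of all genes were 0.02 and 0.22. *Sorcs1* was at 18.6 ± 8.97 RPKM in glial cells and between 0.53 and 3.09 RPKM in the SGN age means (SD, n = 3), lower in SGNs by 4.21 on the log2 scale (SE 0.37, limma-voom adjusted p = 8.3e-09). *Sorcs2*, which also binds p75NTR, was lower in SGNs by 3.87 against glial cells (SE 0.36, adjusted p = 2.4e-08) and fell by 3.12 from E15.5 to P30 (SE 0.84, adjusted p = 0.00725). At P30 *Sorcs2* held 52, 52 and 10 counts, and among ages it passed the filter only through E15.5, P1 and P8. The filter thus favored a fall, and this call between ages is no independent result. *Sorl1* was at 14.2 ± 1.29 RPKM in HCs and lower in SGNs by 2.44 (SE 0.52, adjusted p = 0.00049), although P8, P14 and P30 SGN replicates 1 reached 16.6, 14.4 and 11.4 RPKM. Those libraries had supporting cell marker sums of 51.5, 36.3 and 17.1 RPKM and mesenchyme marker sums of 124, 35.5 and 22.1 RPKM. Their HC marker sums were 338, 372 and 312 RPKM. P14 replicate 3 had 6.76 RPKM of *Sorl1* and 32.3 RPKM of supporting cell markers. Other libraries had such markers but little *Sorl1*. E15.5 replicate 2 had 26.7 RPKM of supporting cell markers and 1.59 RPKM of *Sorl1*. P1 replicate 1 had 100.6 RPKM of mesenchyme markers and 1.20 RPKM of *Sorl1*. P1 replicate 2 had 347 RPKM of HC markers and 1.17 RPKM of *Sorl1*. The part of these cells was not tested. *Sorcs3* was higher in SGNs than in glial cells by 3.71 (SE 1.10, adjusted p = 0.00804). It passed the filter only through SGN libraries, with 8, 4 and 2 counts in glial cells and 2, 45 and 21 in HCs. The filter thus favored this direction, and the call is no independent result. P30 SGN replicates 2 and 3 held 2 and 10 counts, or 0.0195 and 0.0957 RPKM, against 0.0344 to 0.0737 RPKM in glial cells.

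Neurotrophin precursors are cut by proprotein convertases inside the cell or by plasmin outside it, after *Plat* (tissue plasminogen activator) has activated plasminogen. Of the 12 genes on the list of processing enzymes, 8 were tested, and 2 were higher and 1 lower at P30 than at E15.5, 1 higher and 3 lower in SGNs than in HCs, and 2 higher and 1 lower in SGNs than in glial cells. These counts stood beside the shares of all genes given for the family list, with 10.5% higher in SGNs than in HCs, and 3 of 8 from E15.5 to P30 was near the 34.6% of all genes. *Cpe* (carboxypeptidase E, which also serves in sorting to the regulated secretory pathway) rose from 61.5 ± 13.6 RPKM at E15.5 to 213 ± 30.8 RPKM at P30 (SD, n = 3), by 1.77 on the log2 scale (SE 0.19, limma-voom adjusted p = 2.4e-06). *Pcsk1* rose by 4.84 (SE 1.26, adjusted p = 0.00598) to 3.10 ± 1.41 RPKM. It held 3, 122 and 2 counts at E15.5 and passed the filter only through later ages. The filter thus favored a rise, this call is no independent result, and its fitted size depends on the prior count. *Plat* fell by 1.67 (SE 0.43, adjusted p = 0.00526). In HCs, *Plat* was at 17.2 ± 2.00 RPKM, above the SGN mean by a fitted SGN difference of −2.87 (SE 0.22, adjusted p = 6.2e-10), and *Pcsk6* was also lower in SGNs than in HCs (−3.46, SE 0.51, adjusted p = 7.9e-06). *Pcsk2* was between 8.29 and 21.1 RPKM in the SGN age means and at 0.047 ± 0.042 RPKM in HCs, higher in SGNs by 9.32 (SE 1.33, adjusted p = 4.8e-06). It passed the filter only through SGN libraries, since HCs held 8, 0 and 16 counts and glial replicate 3 held 8. The filter thus favored this direction, the call is no independent result, and the fitted size depends on the prior count. *Pcsk7* was lower in SGNs than in glial cells (−2.27, SE 0.22, adjusted p = 2.8e-08). The list's median was −0.27 for E15.5 to P30, −0.40 against HCs and 0.27 against glial cells.

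Downstream of the Trk receptors, adaptors such as the Shc proteins pass the signal to the Ras-MAPK, PI3K-Akt and PLCγ pathways. All 45 genes of the list of Trk effectors were tested, and 3 were higher and 9 lower at P30 than at E15.5. Against HCs 6 were higher in SGNs and 0 lower, and against glial cells 6 were higher and 3 lower. These counts stood beside 34.6% of all genes called from E15.5 to P30, 10.5% higher and 16.2% lower against HCs, and 14.3% higher and 10.4% lower against glial cells. The list's median was −0.14 for E15.5 to P30, 0.58 against HCs and −0.25 against glial cells. *Shc2*, an adaptor of neurons, was at 42.1 ± 9.10 RPKM at E15.5 and 18.9 ± 1.87 RPKM at P30 (SD, n = 3), and higher in SGNs than in HCs by 3.48 on the log2 scale (SE 0.37, limma-voom adjusted p = 9.7e-08) and than in glial cells by 4.49 (SE 0.56, adjusted p = 1.3e-06). *Shc4* and the adaptor *Gab1* had the opposite difference, at 23.5 ± 11.4 and 109.6 ± 3.74 RPKM in glial cells, with SGNs lower by a log2 difference of −3.41 (adjusted p = 3.1e-10) and −3.84 (adjusted p = 3.3e-10). *Rps6ka3* (the kinase RSK2) was higher in SGNs than in HCs by 3.05 (SE 0.28, adjusted p = 7.9e-09), and the docking protein *Frs3* was higher than in glial cells by 3.66 (SE 0.71, adjusted p = 0.00023). Between E15.5 and P30, *Pik3cb* rose by 2.19 and *Map2k1* (MEK1) by 2.07, and *Mapk7* (ERK5) fell by 3.16 and *Sh2b2* by 3.85, with adjusted p of 0.00013, 0.00076, 0.00012 and 0.00094.

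p75NTR signals through adaptors and through partners such as Nogo receptor and LINGO-1. Of the 21 genes on this list, 20 were tested, since *Zfp274* was not matched. From E15.5 to P30, 3 were higher and 1 lower, against HCs 5 were higher in SGNs and 0 lower, and against glial cells 5 were higher and 3 lower. Of all genes, 34.6% were called from E15.5 to P30, above the 4 of 20 here, 10.5% were higher and 16.2% lower against HCs, and 14.3% were higher and 10.4% lower against glial cells. Without P30 SGN replicate 1, 3 of the list were called against HCs. The list's median was −0.06, 0.70 and −0.32 in these comparisons. *Lingo1*, the co-receptor of p75NTR in Nogo signaling, was at 24.0 to 36.0 RPKM in the SGN age means and at 0.11 ± 0.046 RPKM in HCs (SD, n = 3), higher in SGNs by 7.95 on the log2 scale (SE 1.00, limma-voom adjusted p = 9.6e-07) and by 5.03 against glial cells (SE 0.81, adjusted p = 3.0e-05). Of its glial counts, 841 were in replicate 1, the library with the most SGN markers, and 8 and 10 in replicates 2 and 3. HCs held 6, 18 and 12 counts, so *Lingo1* passed the filter only through SGN libraries. The filter thus favored both directions, and these calls are no independent result. *Rtn4r*, the Nogo receptor, rose from 1.13 ± 1.60 RPKM at E15.5 to 7.80 ± 1.17 RPKM at P30 by 3.95 (SE 0.90, adjusted p = 0.00231). *Tradd* rose by 2.68 (SE 0.77, adjusted p = 0.0106). At E15.5 *Rtn4r* held 2, 118 and 14 counts and *Tradd* 12, 20 and 9, and both passed the filter only through later ages. The filter thus favored a rise, and the calls of *Rtn4r* and *Tradd* are no independent results. *Prdm4* (SC-1) fell by 1.19 (SE 0.20, adjusted p = 0.00026). *Adam17*, a protease that sheds the p75NTR ectodomain, and *Rela* were lower in SGNs than in glial cells, by log2 differences of −3.29 (adjusted p = 1.2e-08) and −2.27 (adjusted p = 3.7e-05).

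The genes whose levels followed each member most closely were ranked by Pearson's r of log2(TPM + 1) over the 21 libraries, among 12301 genes with a mean of at least 10 TPM in some group. Libraries of a group share their cell type and TPM scaling, so the coefficients describe these libraries and carry no p-value. *Ntrk3* was closest to *Oprl1*, a nociceptin receptor (r = 0.986), and to *Myt1l*, a neuronal transcription factor (0.981), and *Slco5a1* (0.979). *Ngfr* was closest to *Clmp* (0.975), the adhesion molecule *L1cam* (0.975) and *Phactr1* (0.974), and *Ntrk2* to *Lonrf2* (0.972), *Myh10* (0.964) and *Atp5o* (0.959). *Bdnf* was closest to *Efcab6* (0.992), *Iqub* (0.990) and *Cfap74* (0.990). *Ntf3* was closest to *Gm6141* (0.960), the myosin *Myo3a* (0.957) and the calcium-binding protein gene *Cabp2* (0.953), and *Sort1* had the loosest matches, *Pcnt* (0.943), *Zmpste24* (0.940) and *Phka2* (0.935).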

How the data were processed

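Bulk RNA-Seq of picked or sorted cells was analysed, with 21 libraries in 7 groups taken from the sample labels. RNA was isolated with PicoPure, amplified with Ovation RNA-Seq V2 and made into libraries with Ovation Rapid DR. The authors deposited 1 table of read counts per gene, aligned to mm10 with STAR 2.4.0i and counted with featureCounts on GENCODE vM15, and these counts were used as deposited. Whether counting used strand, and whether reads or fragments were counted, is not given in the sources used here. Of the counts from 1 to 20, a median of 67.9% per library were even.

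Counts were scaled by TMM (edgeR 4.0.16) and tested with limma-voom (limma 3.58.1, R 4.3.3) on group means, two-sided, with Benjamini-Hochberg adjustment over all genes tested. Ages were compared in 15 SGN libraries over 15113 genes above 1 CPM in all replicates of at least 1 age, with calls at an adjusted p under 0.05 and over 2-fold. Cell types were compared in 21 libraries over 17531 genes, with calls at an adjusted p under 0.01 and over 4-fold. The 21 pairs of groups were compared for the order of levels, at the limits used for ages. Single ratios were compared by an exact permutation test. Scripts were checked on simulated data.

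The members and lists were chosen with earlier results of these data known. Named genes were the 6 members, *Ntf5* and other fixed family genes, the study's markers, up to 2 called genes with the largest rise and 2 with the largest fall per list in 3 comparisons, and the 3 genes most like each member. The RPKM scale and the ratio of *Ntrk2* to *Ntrk3* were chosen after seeing the data. Alternatives were edgeR's quasi-likelihood test, DESeq2 1.42.0, library size scaling, no filter on low counts, sample quality weights, counts divided by 2, a replicate block, all 21 libraries for ages and leaving out each library. Leaving out 3 libraries together (E15.5 SGN replicate 2, P14 SGN replicate 1 and glial replicate 1) was added after seeing the data. Replicate numbers were not treated as pairs. Some of the genes fixed for naming are not reported here.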

Additional observations from a re-analysis of the deposited data

How the results depend on the processing

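In the comparisons of neighboring ages and of P30 with E15.5, none of the 6 genes was called under any alternative. Among the 21 pairs of groups, *Ntf3* was called between E15.5 and P14 SGNs, as given above. The calls of *Ntrk2*, *Ntrk3*, *Ngfr* and *Bdnf* between the SGN mean and HCs held except for *Ntrk2* with library size scaling. From these calls against HCs *Ntf3* is left out, since the filter favored its direction and its call is no independent result. Values below are log2 differences or counts of genes called, and the cause of a change was not tested. Between HCs and glial cells, *Ntf3* was lost with edgeR (adjusted p = 0.0378), DESeq2 (0.0283) and sample quality weights (0.0860), *Ngfr* was lost without a filter (0.0205), and both were lost without the 3 libraries, which left 1 of the 6 genes called. Counts fell to 552 from E15.5 to P1 with quality weights and to 649 from P1 to P8 with edgeR. From P8 to P14 they were 34 with edgeR, 198 with DESeq2, 174 with quality weights and 146 with the replicate block. From P14 to P30 they were 97 with DESeq2, 15 without a filter, 110 with quality weights, 23 with the replicate block, 16 with all 21 libraries and 1 without the 3 libraries. With quality weights they were 2017 for the SGN mean against glial cells, 1942 for P8 SGNs against glial cells and 2226 for HCs against glial cells.

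Values that changed sign had not been called. With library size scaling they were −0.0543 for *Bdnf* from E15.5 to P1, −0.0486 for *Ntrk2*, −0.0935 for *Ngfr* and −0.0154 for *Sort1* from P8 to P14, −0.30 for *Ngfr* and −0.32 for *Bdnf* from E15.5 to P30, −0.0774 for *Bdnf* in P8 SGNs against glial cells and −0.70 for *Sort1* in P14 SGNs against HCs. *Ngfr* from P8 to P14 was −0.0241 without a filter, −0.0558 with quality weights and −0.000309 with all 21 libraries. *Bdnf* from E15.5 to P30 was −0.16 with edgeR and −0.19 with DESeq2, and *Sort1* in P14 SGNs against HCs was −0.16 with DESeq2 and −0.0055 with quality weights. Without the 3 libraries, *Sort1* was 0.16 from E15.5 to P1, *Ntrk3* −0.0386 and *Ngfr* −0.0077 from P14 to P30, and *Ntf3* −0.14 in the SGN mean against glial cells.

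Leaving out each library in turn gave 688 to 1772 genes from E15.5 to P1, 652 to 1235 from P1 to P8, 28 to 110 from P8 to P14 and 1 to 30 from P14 to P30, and 1 to 3 of the 6 genes between HCs and glial cells. Ranges that crossed 0 were −0.31 to 0.16 for *Sort1* and −0.63 to 0.85 for *Bdnf* from E15.5 to P1, and −1.12 to 0.15 for *Bdnf* from P1 to P8. From P8 to P14 they were −0.0144 to 0.12 for *Ntrk2*, −0.18 to 0.12 for *Ngfr* and −0.0207 to 0.22 for *Sort1*. From P14 to P30 they were −0.0158 to 0.29 for *Ntrk3* and −0.10 to 0.30 for *Ngfr*, and from E15.5 to P30 −0.0167 to 0.42 for *Ngfr* and −0.55 to 0.79 for *Bdnf*. Against glial cells they were −0.0399 to 1.57 for *Ntf3* with the SGN mean, and −0.16 to 0.35 for *Bdnf* and −1.87 to 0.12 for *Ntf3* with P8 SGNs. For *Sort1* in P14 SGNs against HCs the range was −0.13 to 0.10.

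Replicate numbers were not taken as pairs, since all correlations of deviations between same-numbered samples were over 0.1 in 1 of the 21 pairs of groups only, P8 and P30 SGNs (0.378, 0.172 and 0.146 in the fit of ages). None of the 6 genes was called between these ages. In the same fit, replicates 1 correlated at 0.249 to 0.378 in all pairs of postnatal SGN ages, and what these libraries share was not tested. The libraries closest to their own number were 5 of 6 for P14 and P30, and the replicate block changed no call of the 6 genes in the comparisons of ages and cell types and left 7 called steps between neighbors in the order of levels. Counts near 0 limited *Ntf3*, for which 3 counts was taken as the floor.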

Other observations

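Ranked on the RPKM scale in place of TPM, the genes with levels most like each member changed in part (Pearson's r of log2 values over the 21 libraries, with no p-value). *Ntrk3* was again closest to *Oprl1* (0.989), followed by *Nrg1* (0.987) and *Unc5d* (0.985), and *Ntrk2* was closest to *Esrrg* (0.979), *Rims1* (0.975) and *Lonrf2* (0.975). *Bdnf* was again closest to *Efcab6* (0.991), which was at 17.9 RPKM in HCs and between 0.0608 and 0.416 RPKM in the SGN age means.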
